A study of Sus scrofa domesticus with 4 samples.

Results

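The genes described here encode RNA helicases, splicing factors and translation factors, measured in pig myometrium cultured with or without adiponectin. They were taken by symbol: every probe whose RefSeq accession belongs to a pig gene beginning DDX, DHX, SRSF, HNRNP, SF3, SNRP, PRPF, RBM, EIF or EEF, together with PNISR and leaving out EIF2AK2. The array held 43 such genes on 151 probes, of 3029 named genes on 6700 named probes. Another 36903 of its 43603 probes were left unnamed, so the families may hold more genes than are counted here. Of a fixed list of 19 well-known factors, 7 were tested. After the filter on dim probes, 41 genes on 145 probes were tested, of 2134 named genes. They fall into 4 role groups: 5 tested DDX and DHX helicases of 6, 21 splicing factors of 21, 4 RBM genes of 5 and 11 translation factors of 11. RBM47 and DHX32 were well above background on 0 arrays and were not tested.

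The tissue, uterine smooth muscle, came from 4 gilts (Large White x Polish Landrace) aged 7 to 8 months and weighing 120 to 130 kg, at 15 to 16 days of gestation. Slices of about 100 mg were preincubated for 2 h and then kept for 24 h in medium, either with adiponectin at 10 µg/ml or with nothing added; the 2 groups shared tissue, medium and time and no other treatment is named. Cultures were run in duplicate. Each of 4 Agilent arrays compared 1 treated with 1 control RNA, and the dye fields of the labels give the treated RNA as Cy5 for arrays 1 and 3 but as Cy3 for arrays 2 and 4 (the written labelling protocol mentions the first orientation alone). The explant holds every cell type of the muscle layer, and the labels link no array to a gilt and leave unsaid whether its 2 RNAs share an animal. The p-values therefore rest in part on the spread among 4 arrays, which may be partly technical. They also rest on a variance shared by all tested probes.

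Adiponectin is a hormone released mainly by fat tissue that acts through its receptors on energy metabolism, and the series asked how it affects gene expression in the early pregnant myometrium. A pre-mRNA loses its introns in the spliceosome, which is built from small nuclear RNA-protein particles (snRNPs, with SNRP and SF3 proteins) and the PRPF proteins, and is remodelled by DEAD-box (DDX) and DEAH-box (DHX) helicases. SR proteins (SRSF genes) mostly favour the use of an exon, hnRNP proteins (HNRNP genes) often oppose it, and many RBM proteins tune the choice. Eukaryotic initiation factors (EIF genes) bring the ribosome to the mRNA and find the start codon, and elongation factors (EEF genes) deliver amino acids to the growing chain.

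The share of spots well above background ranged from 46.1% to 63.1% over arrays and channels, and on each array it was larger in Cy5 than in Cy3. Ratios are log2 of treated over control signal, and a value per array still holds the dye offset of its probe. A fitted change is the limma treatment coefficient over 4 arrays, with its moderated SE. For SE and p-value, limma draws each probe's variance toward that of all tested probes, with 3.72 prior and 2 residual degrees of freedom. They thus do not measure a gene's own spread over the arrays alone. The smooth muscle markers ACTA2, CNN1, DES, MYLK and TPM2 were well above background on all 4 arrays in both channels, and so were 3 of 4 tested epithelial markers and 9 of 9 tested macrophage markers. In a tissue measured whole, fewer cells of a type and less RNA per cell cannot be told apart. The brightest tested probe stands for a gene. The range over its tested probes is printed for some of the named genes, and a gene without one may still have several probes.

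No helicase, splicing or translation factor differed between adiponectin and control at the threshold. With limma and Benjamini-Hochberg adjustment over all 22133 tested probes, 0 member genes and 0 probes (0% called) had an adjusted p under 0.05, and adjusted p of the member genes lay between 0.856 and 0.995. At an unadjusted p under 0.05, 3 of 41 members were higher (DDX46, PNISR and SRSF11) and 0 were lower, where 3.09% of all named tested genes were higher and 2.44% were lower. The same cutoff took 839 higher and 425 lower probes among all those tested. The fitted changes of the members lay between -0.32 and 0.47. The median half-width of their unadjusted 95% intervals was 0.38.

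Values lay above 0 on all 4 arrays for 4 members (DDX46, SRSF12, SNRPC and SRSF6) and below 0 on all 4 for another 4 (DDX39B, SNRPD3, SRSF9 and EIF1B). Among all named tested genes 5.53% were above 0 on every array and 7.45% below. The dye coefficient was larger in size than the fitted change for 19 of the 41 members.

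**Figure D1:**
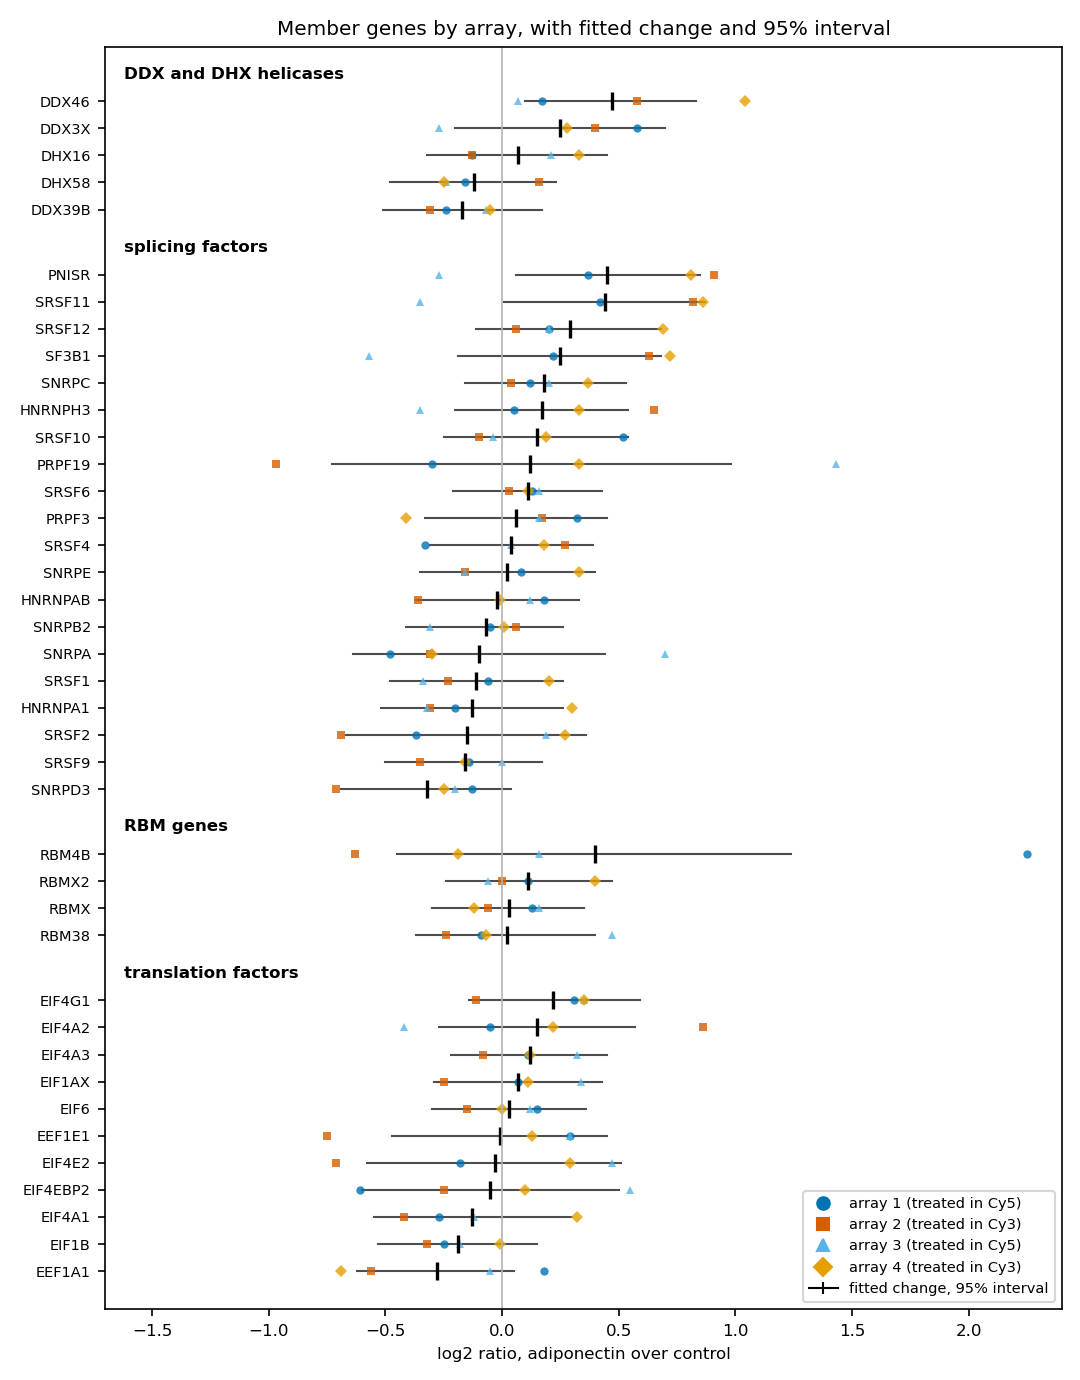
Log2 ratio of adiponectin over control (x axis) for 40 of the tested member genes (y axis), with 1 marker per array and the fitted change with its 95% interval in black. The intervals of DDX46, PNISR and SRSF11 lie above 0; the value of RBM4B on array 1, 2.25, stands far from its other 3.

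The splicing and translation groups had medians close to each other. Of 21 splicing factors 13 were above 0, with a median log2 change of 0.06; of 11 translation factors 5 were above 0, with a median of -0.01. Over all named tested genes 974 of 2134 were above 0, with a median of -0.02. The helicases had 3 of 5 above 0 and a median of 0.07, and the RBM genes 4 of 4 and a median of 0.07.

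Single arrays gave no common order of the groups. The median ratio of the splicing factors was 0.08, 0.03, -0.04 and 0.27 on arrays 1 to 4. That of the translation factors was 0.07, -0.25, 0.29 and 0.12. The splicing median thus stood above the translation median on arrays 2 and 4, level with it on array 1 and below it on array 3, with differences of 0.00, 0.28, -0.33 and 0.14 (SD 0.26, n = 4 arrays). The difference of the fitted medians was 0.07, and it was -0.04 without array 1 and 0.20 without array 4. The fitted difference was smaller than that SD, but the SD still holds the dye offsets that the fit takes out. By dye, the array differences were 0.00 and -0.33 with treated RNA in Cy5 and 0.28 and 0.14 with it in Cy3. Among the omissions the fitted difference changed sign only without array 1. Array 3 was then alone in its dye and weighed as much as arrays 2 and 4 together.

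**Figure D2:**
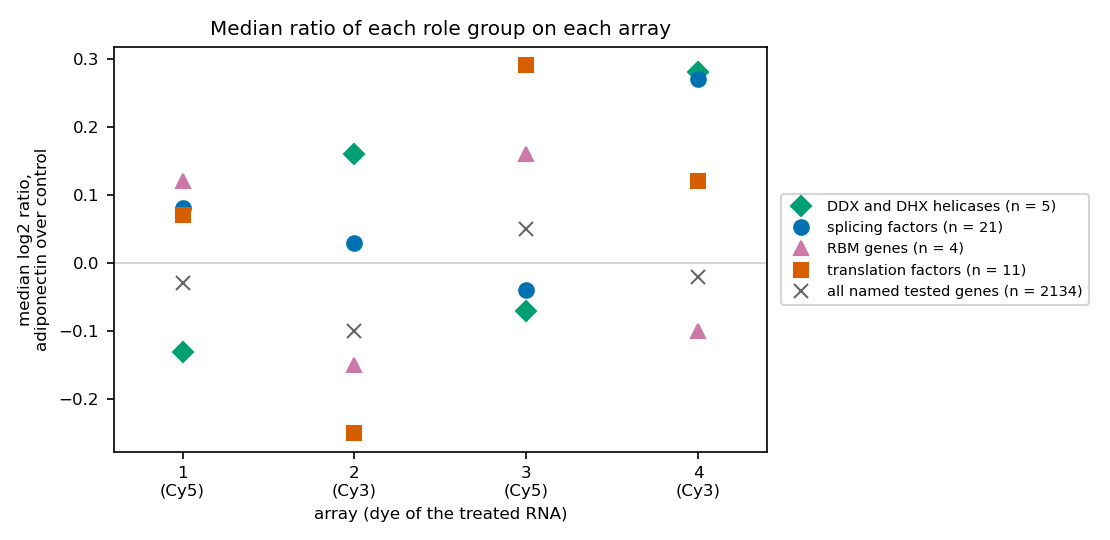
Median log2 ratio of adiponectin over control (y axis) on each array (x axis, with the dye of the treated RNA) for the 4 role groups and all named tested genes. The translation group is the lowest on array 2 at -0.25 and the highest on array 3 at 0.29, and the splicing group stays between -0.04 and 0.27.

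Counted over probes the 2 groups stood further apart, and in the translation group a few genes with many probes made up most of the count. Of 76 tested probes of splicing factors 47 were above 0, with a median of 0.08, and of 48 probes of translation factors 14 were above 0, with a median of -0.15. EEF1A1 supplied 17 of those 48 probes and EIF1B 7, and the probes of both genes were all below 0. Of the 145 member probes, 10 were higher and 6 lower at an unadjusted p under 0.05, where 3.79% and 1.92% of all tested probes were, and 12 were above 0 on all 4 arrays and 26 below, where 6.36% and 6.22% were. Probes of a gene read the same RNA and are not replicates of the treatment.

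Among the helicases DDX46 had the highest value. It is the counterpart of yeast Prp5, which remodels the U2 snRNP as the spliceosome first assembles. Its processed signals, in the scanner's arbitrary units, were 1438, 1593, 1858 and 1578 in treated and 1278, 1062, 1767 and 770 in control RNA on arrays 1 to 4. The ratios were 0.17, 0.58, 0.07 and 1.04. All 4 arrays were above 0, with the 2 arrays that had treated RNA in Cy3 higher than the other 2. The fitted change was 0.47 ± 0.15 (SE, n = 4 arrays), a 1.38-fold higher signal with a 95% interval of 0.10 to 0.83 on the log2 scale; limma's unadjusted p was 0.0204 and its adjusted p 0.856. It rests on 1 probe, and lay between 0.35 and 0.58 when each array was left out in turn.

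DDX3X, a helicase that assists initiation on structured mRNAs, had ratios of 0.58, 0.40, -0.27 and 0.28. Array 3 stood below 0 and the other 3 above it, and the fitted change was 0.25 ± 0.18. It was 0.04 without array 1 and 0.46 without array 3. DHX16, counterpart of yeast Prp2, which activates the assembled spliceosome, had ratios of -0.13, -0.13, 0.21 and 0.33. The arrays split evenly around 0, and the fitted change of 0.07 ± 0.15 became 0.18 without array 2 and -0.05 without array 4.

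On the lower side, DDX39B couples the spliceosome to mRNA export. Its ratios were -0.24, -0.31, -0.07 and -0.05, below 0 on every array, with a fitted change of -0.17 ± 0.14 (-0.10 without array 2) and 4 probes between -0.24 and 0.05. DHX58, a relative of the viral RNA sensor RIG-I with no role in splicing, had ratios of -0.16, 0.16, -0.24 and -0.25. It was above 0 on array 2 alone, with a fitted change of -0.12 ± 0.14, which was -0.22 without array 2 and -0.02 without array 4.

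PNISR stood highest among the splicing factors. It encodes an arginine and serine rich protein of nuclear speckles that binds the splicing regulator pinin. Its brightest probe had processed signals of 7611, 3355, 5435 and 6057 in treated and 5904, 1790, 6541 and 3460 in control RNA. The ratios were 0.37, 0.91, -0.27 and 0.81, so the treated RNA was lower on array 3 and higher on the other 3. The fitted change was 0.45 ± 0.16, a 1.37-fold higher signal with a 95% interval of 0.06 to 0.85, an unadjusted p of 0.0318 and an adjusted p of 0.856 by limma. It was 0.30 without array 1 and 0.61 without array 3.

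The other probes of PNISR gave the same direction. All 7 were above 0, between 0.21 and 0.78 with a median of 0.57, and 5 of them had an unadjusted limma p under 0.05. The probe with the largest change had ratios of 0.69, 1.14, 0.24 and 1.07, above 0 on every array. Over the 7 probes the median ratio was 0.33, 0.83, 0.05 and 1.03 on arrays 1 to 4. Array 3 was thus the lowest whichever probe was read.

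SRSF11, an SR-rich protein that binds the U2 auxiliary factor, had a like spread over the arrays. Its ratios were 0.42, 0.82, -0.35 and 0.86, again below 0 on array 3 alone. The fitted change was 0.44 ± 0.17, a 1.36-fold higher signal with an interval of 0.01 to 0.87, an unadjusted p of 0.0466 and an adjusted p of 0.856 by limma. All 9 probes were above 0, from 0.13 to 0.44, but their median of 0.20 was less than the value of the brightest probe, which was the highest of the 9. Without array 1 the change was 0.24, and without array 3 it was 0.63.

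SF3B1, the U2 snRNP subunit that clamps the branch site, had ratios of 0.22, 0.63, -0.57 and 0.72. The fitted change was 0.25 ± 0.17, with 0.05 without array 1 and 0.44 without array 3. Its 6 brighter probes, with a mean log2 signal of at least 10, lay between 0.17 and 0.27, and its 2 dimmer ones were at -0.57 and -0.24. The brighter probes ranged from -0.57 to -0.45 on array 3 and from 0.55 to 0.80 on array 2. Array 3 was the lowest for every one of the brighter probes.

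The brightest probe of HNRNPH3, an hnRNP protein, also had its lowest ratio on array 3, while another of its probes was lowest on array 1. The ratios of that probe were 0.05, 0.65, -0.35 and 0.33. Its fitted change of 0.17 ± 0.15 was the highest of the gene's 4 probes, which ran from -0.07 to 0.17. CLK1, a kinase of SR proteins outside the member rule, had 0.03, 0.89, -0.63 and 0.68. Both genes were chosen after their values were seen. Of the other tested splicing genes outside the rule, only BCLAF1 was also lowest on array 3. LSM2, SRRM2 and TRA2A were lowest on array 1, TRA2B, SRPK1, PTBP1 and QKI on array 2, and SNU13 on array 4.

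Of 4 tested epithelial markers, 2 were lowest on array 3 and 2 on array 1. EPCAM, an epithelial adhesion protein, had ratios of -0.09, 1.24, -1.21 and 2.19, and KRT8, an epithelial keratin, 0.48, 0.81, -0.55 and 0.98. CDH1, the epithelial cadherin, had -1.11, 1.32, -0.95 and 0.69, and CLDN4, a tight junction claudin, -0.77, 0.70, -0.70 and 0.10. Of 7 epithelial markers these 4 were on the array and tested; their median ratio was -0.43, 1.02, -0.83 and 0.84, lower on the 2 arrays with treated RNA in Cy5 than on the 2 with it in Cy3. The same split by dye held for PNISR, SRSF11 and SF3B1, with dye coefficients of -0.40, -0.40 and -0.43. The 4 epithelial markers' summed processed signal ranged from 211 to 4715 in treated and from 237 to 1741 in control RNA. The part of these cells and of the dye in the values of PNISR, SRSF11 and SF3B1 was not tested. The 5 tested smooth muscle markers of 10 went the other way on array 3, with median ratios of -0.73, -0.10, 0.95 and -0.25 and summed signals of 232112 to 402060 in treated and 206606 to 420720 in control RNA. The 9 tested macrophage markers of 11 had median ratios of 0.50, -0.30, 2.22 and 0.63 and summed signals of 2359 to 9386 and 2178 to 5962. The erythrocyte markers were not on the array under these names.

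**Figure D3:**
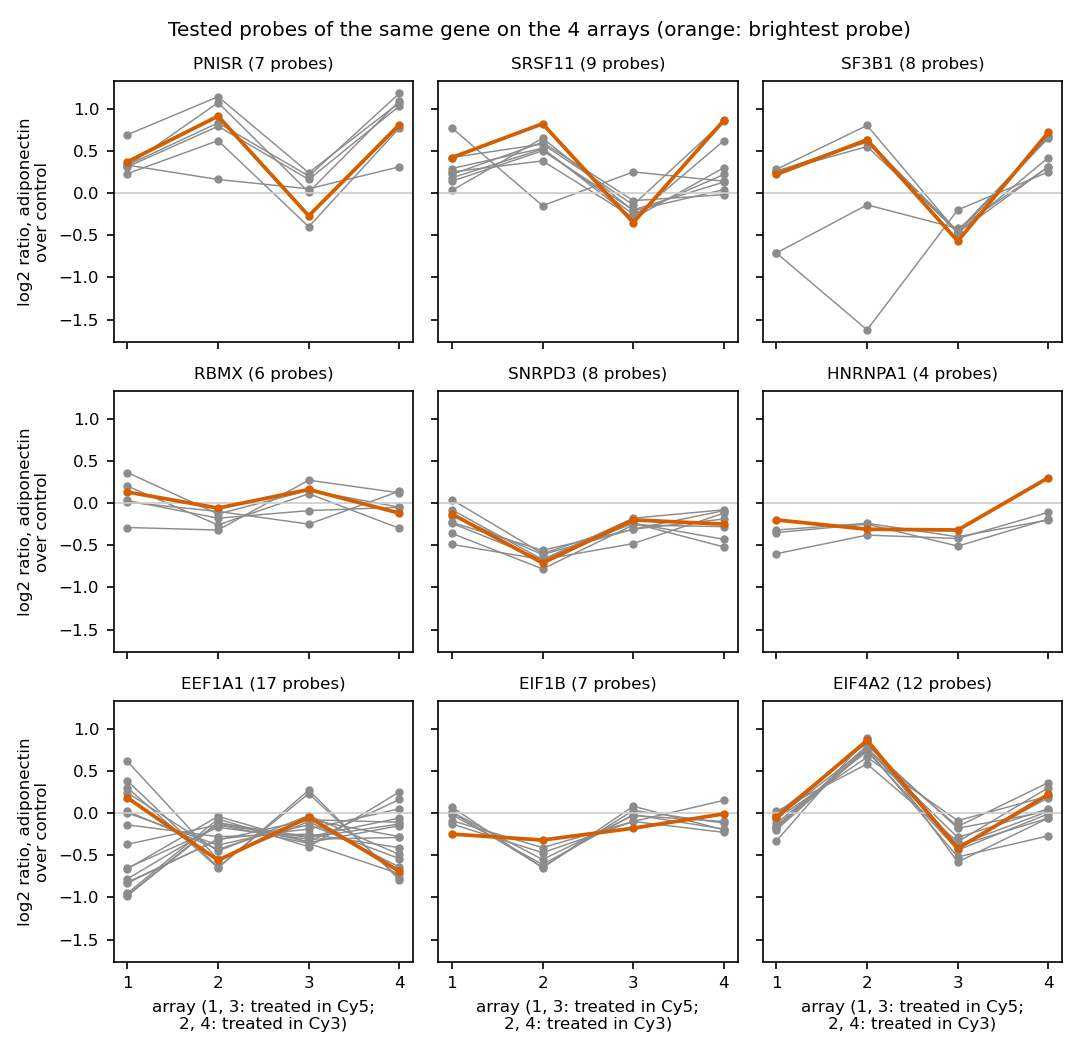
Log2 ratio of adiponectin over control (y axis) of every tested probe of the genes with many probes, on arrays 1 to 4 (x axis); a line joins the values of 1 probe and the brightest probe is orange, and the arrays have no order. Most lines of PNISR, SRSF11 and SF3B1 are lowest on array 3, most of those of SNRPD3 are lowest on array 2, and those of EEF1A1 cross.

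SRSF12, SNRPC and SRSF6 had small values that were above 0 on every array. SRSF12, an SR protein that can counter the others, had ratios of 0.20, 0.06, 0.20 and 0.69, with array 4 above the rest, and a fitted change of 0.29 ± 0.16 on 1 probe. It was 0.07 with normexp and loess in place of the scanner's normalization, 0.13 without array 4 and 0.44 without array 2. SNRPC, the U1 snRNP protein that helps to recognise the 5′ splice site, had 0.12, 0.04, 0.20 and 0.37, a fitted change of 0.18 ± 0.14 and 4 of 4 probes above 0. The SR protein SRSF6 had 0.13, 0.03, 0.16 and 0.11 and a fitted change of 0.11 ± 0.13, so its arrays differed little. The change was still smaller than its SE, which also draws on the spread of all tested probes.

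SNRPD3 stood lowest of all members. It is a subunit of the Sm ring, the protein core shared by the spliceosomal snRNPs. Its processed signals were 4429, 3485, 4170 and 2852 in treated and 4835, 5718, 4794 and 3389 in control RNA. The ratios were -0.13, -0.71, -0.20 and -0.25, below 0 on every array and lowest on array 2. The fitted change was -0.32 ± 0.15, a 1.25-fold lower signal, with an unadjusted p of 0.0728 and an adjusted p of 0.856 by limma. All 8 probes were below 0, between -0.44 and -0.29, and 3 of them had an unadjusted p under 0.05. Without array 2 the change was -0.21 and without array 4 it was -0.44.

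The other lower splicing factors had values nearer 0. HNRNPA1, a shuttling hnRNP protein that often silences exons, had ratios of -0.20, -0.31, -0.32 and 0.30. Array 4 alone was above 0, the fitted change was -0.13 ± 0.16, and without array 2 it was 0.02. The other 3 probes were below 0 on every array, at -0.29, -0.32 and -0.38, with unadjusted limma p of 0.0705, 0.0518 and 0.0359 and none called after adjustment. The mean over the 4 probes was -0.28. Near-identical copies of this gene may share its probes, which makes its values uncertain.

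SRSF9 had ratios of -0.14, -0.35, 0.00 (below 0 before rounding) and -0.16, with a fitted change of -0.16 ± 0.13 and 2 probes at -0.21 and -0.16. SRSF2, which binds exonic enhancers, had -0.37, -0.69, 0.19 and 0.27. Arrays 1 and 2 were low and arrays 3 and 4 high, and the fitted change of -0.15 ± 0.21 became 0.09 without array 2 and -0.39 without array 4. SRSF1, the founding SR protein, had -0.06, -0.23, -0.34 and 0.20, a fitted change of -0.11 ± 0.15, and 2 of 4 probes on each side of 0. Its change was 0.00 without array 2 and -0.21 without array 4.

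The remaining splicing factors lay between -0.10 and 0.15 in fitted change. PRPF19, the ubiquitin ligase of the spliceosome, had the widest spread of them, with ratios of -0.30, -0.97, 1.43 and 0.33 on a dim probe that was well above background on 3 treated and 2 control arrays. A brighter probe of PRPF19 was not tested because it had no value on array 4. By family, 5 of 8 SRSF genes (median 0.08), 1 of 3 HNRNP genes (median -0.02) and 2 of 5 SNRP genes (median -0.07) were above 0; no tally is given for the PRPF genes.

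RBM4B had the largest value of any member on a single array, and that value came from 1 spot. It belongs to a family of splicing regulators with RNA recognition motifs. Its processed signals were 264, 959, 723 and 570 in treated and 55.5, 1488, 646 and 650 in control RNA. The array 1 spot was thus the dimmest in each channel, though still well above background in both. The ratios were 2.25, -0.63, 0.16 and -0.19, with array 1 alone far above 0. The fitted change of 0.40 ± 0.34 became -0.12 without array 1, 0.92 without array 3 and 0.00 with normexp and loess, and the other 2 probes were at -0.16 and -0.10.

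The other RBM genes lay close to 0. RBMX, an hnRNP family member also called hnRNP G, had ratios of 0.13, -0.06, 0.16 and -0.12 and a fitted change of 0.03 ± 0.13, with 6 probes between -0.07 and 0.08. RBMX2, a spliceosome component, had 0.11, 0.00, -0.06 and 0.40 and a fitted change of 0.11 ± 0.14. RBM38, which binds mRNA and affects its stability, had -0.09, -0.24, 0.47 and -0.07 and a fitted change of 0.02 ± 0.16; its 3 probes ran from 0.02 to 0.53, the highest being dim. None of the 3 had arrays that all lay on one side of 0.

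Among the initiation factors EIF4G1 was the highest. It is the scaffold that joins the cap-binding protein to the ribosome. Its ratios were 0.31, -0.11, 0.35 and 0.35. Arrays 1, 3 and 4 were close together and array 2 stood below 0, and the fitted change was 0.22 ± 0.15. It was 0.11 without array 4 and 0.34 without array 2.

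The EIF4A proteins are the RNA helicases of initiation and of the exon junction complex. EIF4A2 had ratios of -0.05, 0.86, -0.42 and 0.22, high on array 2 and low on array 3, with a fitted change of 0.15 ± 0.17 (-0.01 without array 2 and 0.31 without array 4). Of its 12 probes 10 were above 0, in a narrow range from -0.05 to 0.20, and all 12 were above 0 on array 2 (0.58 to 0.89) and below 0 on array 3 (-0.58 to -0.09). EIF4A1 had -0.27, -0.42, -0.12 and 0.32, with array 4 alone above 0. Its fitted change of -0.13 ± 0.17 became 0.06 without array 2 and -0.31 without array 4, and its other tested probe was at -0.20. A brighter probe of EIF4A1, with -0.30, -0.43 and -0.42 on arrays 1 to 3, was not tested because it had no value on array 4. The 2 genes are close in sequence, and how well their probes separate them was not tested. EIF4A3, the helicase of the exon junction complex that marks spliced mRNA, had 0.11, -0.08, 0.32 and 0.12 and a fitted change of 0.12 ± 0.14, with its 2 probes at -0.09 and 0.12.

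The cap-binding and inhibitory members had wide spreads. EIF4EBP2, which holds the cap-binding protein away from the scaffold, had ratios of -0.61, -0.25, 0.55 and 0.10, with 2 arrays on each side of 0 and a fitted change of -0.05 ± 0.22. EIF4E2, a cap-binding protein that represses translation, had -0.18, -0.71, 0.47 and 0.29 and a fitted change of -0.03 ± 0.22. EIF6, which keeps the large ribosomal subunit free, was at 0.03 ± 0.13.

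The start codon factors lay on either side of 0. EIF1AX, which helps the small subunit to scan, had ratios of 0.07, -0.25, 0.34 and 0.11 and a fitted change of 0.07 ± 0.15. EIF1B, a close relative of the start codon gatekeeper EIF1, had -0.25, -0.32, -0.18 and -0.01, below 0 on every array. Its fitted change was -0.19 ± 0.14, and its 7 probes lay between -0.21 and -0.14. Without array 2 the change was -0.11.

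EEF1A1 delivers aminoacyl-tRNA to the ribosome in every cycle of elongation. Its brightest probe had processed signals of 116334, 116844, 137275 and 120572 in treated and 102718, 172494, 142522 and 194062 in control RNA. The ratios were 0.18, -0.56, -0.05 and -0.69, low on the 2 arrays with treated RNA in Cy3 and nearer 0 on the other 2. The fitted change was -0.28 ± 0.14, a 1.21-fold lower signal, with an unadjusted p of 0.0856 and an adjusted p of 0.856 by limma. It lay between -0.34 and -0.22 when each array was left out. No member probe was marked as saturated.

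All 17 tested probes of EEF1A1 had a fitted change below 0, from -0.40 to -0.17, although they did not read alike on single arrays. In 9 probes the dye coefficient was above 0, and their ratios ranged from -0.37 to 0.61 on array 1 and from -0.79 to -0.28 on array 4. In 8 probes the dye coefficient was below 0, and their ratios ranged from -0.98 to -0.65 on array 1 and from -0.29 to 0.25 on array 4. The sets were split by the dye coefficient, which is made from these same ratios, so their opposite order over the arrays follows from the split. Mean log2 signals were 16.62 to 17.04 in the first set and 14.44 to 15.93 in the second. The fitted changes overlapped (-0.40 to -0.17 and -0.36 to -0.29). Near-identical copies of EEF1A1 could share these probes. EEF1E1, an auxiliary protein of the aminoacyl-tRNA synthetase complex, had ratios of 0.29, -0.75, 0.29 and 0.13 and a fitted change of -0.01 ± 0.18.

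**Figure D4:**
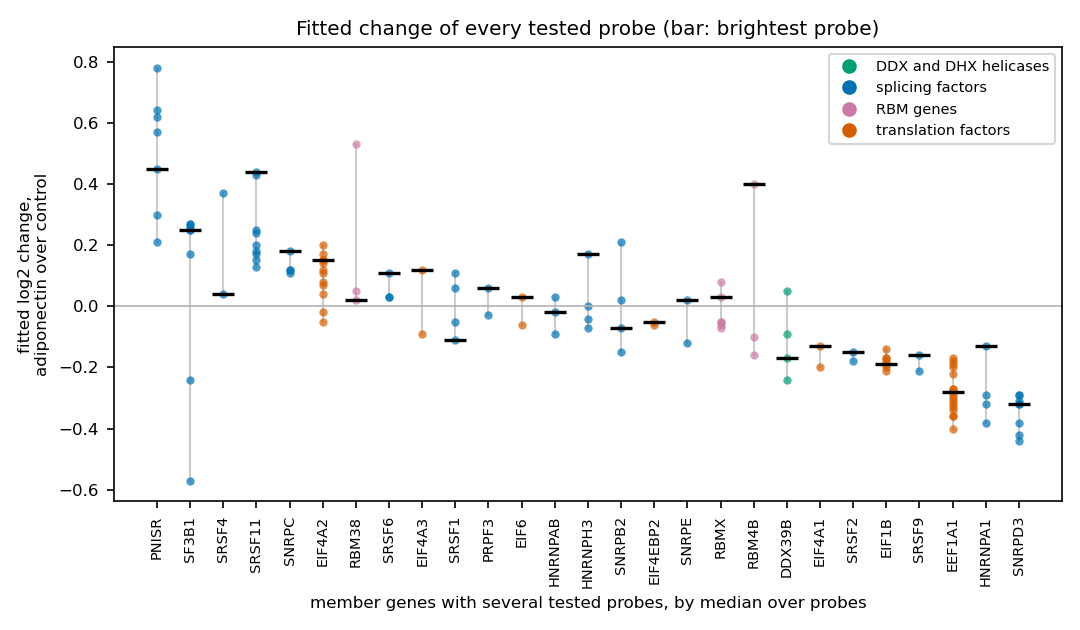
Fitted log2 change (y axis) of every tested probe of 27 member genes with several tested probes, ordered along the x axis by their median; points are probes, coloured by role group, and bars mark the brightest probe. PNISR and SRSF11 lie wholly above 0, EEF1A1, SNRPD3 and EIF1B wholly below, and the 8 probes of SF3B1 span -0.57 to 0.27.

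Agreement between probes of a gene varied. Of 28 genes with several tested probes, 15 had all of them on 1 side of 0 and 13 had probes on both sides. Those 13 were RBM4B, RBMX, DDX39B, SF3B1, HNRNPH3, PRPF3, SNRPE, HNRNPAB, SNRPB2, SRSF1, EIF4A2, EIF4A3 and EIF6. Their probes ran from -0.57 to 0.40.

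Other genes of the same pathways were read from separate lists. Of 69 further splicing genes 10 were on the array and tested, 0 passed in either direction, and 7 were above 0 with a median of 0.07. BCLAF1, a nuclear protein linked to splicing, had ratios of 0.42, 0.33, 0.17 and 0.99 and a fitted change of 0.48 ± 0.17. SRPK1, a kinase that sends SR proteins into the nucleus, had 0.37, 0.20, 0.30 and 0.52 and a fitted change of 0.35 ± 0.14. Both were above 0 on every array, with unadjusted limma p of 0.0301 and 0.0480 and adjusted p of 0.856.

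Of 47 further translation genes 5 were tested, 0 passed in either direction, and 2 were above 0 with a median of -0.06. ABCF1, which associates with ribosomes and initiation factor 2, had ratios of 0.49, 0.19, 0.36 and 0.59 and a fitted change of 0.41 ± 0.14, above 0 on every array. TPT1, an abundant mRNA under growth-dependent translational control, had -0.09, -0.61, 0.00 and -0.57 and a fitted change of -0.32 ± 0.13, with its low values on the 2 arrays that had treated RNA in Cy3. A value that misses the threshold on 4 arrays does not show that a gene did not differ.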

How the data were processed

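The deposited scanner files, made with Agilent Feature Extraction 10.7.3.1 per the file headers, hold intensity per channel and a log10 ratio of Cy5 over Cy3 signals that the authors' software had background-subtracted and dye-normalised. The deposited series table holds log2 ratios; where probes were bright it matched the scanner ratios as log2 treated over control. How its dim values were made is not given in the sources used here. Here the log10 ratio was turned to log2, with its sign turned on arrays 2 and 4. Tested probes had a value on every array and were well above background on 3 or more arrays in the treated or the control channel. Treatment and dye coefficients were fitted with limma 3.58.1 (R 4.3.3; lmFit and eBayes, two-sided, Benjamini-Hochberg over 22133 probes, threshold 0.05), tested on simulated data. Accessions were named through a table of assembly Sscrofa11.1; no build is named, so no coordinates are given, and probe sequences were not used here. Named members were, per role group, the 4 highest and 4 lowest moderated statistics (3 for RBM genes) and a fixed list of well-known factors; from each further list the 2 smallest p. HNRNPH3, CLK1, SNRPC, SRSF6, PRPF19, EIF4E2, EIF6, EEF1E1, EPCAM and KRT8 were added after their values were seen. Members and lists were chosen with earlier results of these data known. The result of 1 member is not reported here, and the plots leave it out.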

Additional observations from a re-analysis of the deposited data

Results flagged for a closer look

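In 3 of 46 sets of 4 array values, 1 array stood apart from the other 3 by more than Dixon's 95% limit. For independent values from 1 normal distribution chance gives about 1 in 20, or 2.30 sets. The values here still hold dye offsets and need not be normal, so that number is only a rough guide. EEF1E1 was at -0.75 on array 2, with the other arrays between 0.13 and 0.29. EIF4G1 was at -0.11 on array 2, with the others between 0.31 and 0.35. SNRPA, the U1 snRNP protein that binds a loop of U1 RNA, was at 0.70 on array 3, with the others between -0.48 and -0.30.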

How the results depend on the processing

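The count of called probes was 0 under all settings run except without array 3, where 12 of 22133 probes were called (range over the omissions 0 to 12); the smallest adjusted p of a member there was 0.253. With all 4 arrays kept, 0 members were called under any setting. Under all settings the group medians moved by less than 1 SD of the arrays, a wide limit since it holds dye offsets. Leaving out the dye coefficient could not move them, as the dyes were balanced. The helicase median of 0.07 was -0.03 with no filter on dim probes and -0.02 without array 3 or array 4. The median of all members went from 0.04 to -0.02 without array 4. That of the translation factors went from -0.01 to 0.07 without array 2. The splicing and RBM medians stayed above 0. The 26 members named by rule were mostly picked by the size of their statistic in these same data, which favours a kept direction. Their count therefore does not stand for all members. Outside the 26, PRPF19 for example ran from -0.31 to 0.56 over the omissions and SNRPC from 0.10 to 0.27. Of the 26 named members, 17 kept their direction in every omission of 1 array and 9 did not. Their ranges were -0.05 to 0.18 for DHX16, -0.28 to 0.02 for HNRNPA1, -0.39 to 0.09 for SRSF2, -0.12 to 0.92 for RBM4B, -0.12 to 0.15 for RBM38, -0.01 to 0.31 for EIF4A2, -0.02 to 0.16 for EIF1AX, -0.31 to 0.06 for EIF4A1 and -0.34 to 0.24 for EIF4EBP2. In such a fit the array left alone in its dye weighs as much as the other 2 together. With normexp and loess RBM38 was at -0.01 and EIF4EBP2 at 0.01, and with the mean over probes RBMX was at -0.02 and SRSF1 at 0.00; for these reversals the cause was not tested. A minimum mean log2 signal of 10 for the probe that stands for a gene was chosen after seeing the data. It could only keep or drop a gene's brightest probe, so it could not turn the direction of any gene. The random slide block could not be fitted, because array 4 was alone on its slide, and was not run; without array 4 the values are those within slide 1. Each ratio already sets treated against control within 1 array; no label links an array to a gilt. The number of arrays limits the precision. RBM4B moved from 0.40 to 0.00 with normexp and loess, and the part of its dim spot on array 1 in that was not tested.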
